A study of Mus musculus with 2 samples.

Results

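Cytoplasmic intermediate filaments of the mouse nervous system are built from a small family of genes, and 7 of them were followed here in the embryonic midbrain. They were the neurofilament genes Nefl, Nefm and Nefh, the alpha-internexin gene Ina, the nestin gene Nes, the vimentin gene Vim and the glial fibrillary acidic protein gene Gfap. They were chosen by name, and each was matched by its Ensembl gene ID. They made up 7 of the 43346 Ensembl genes in the gene tables and held 17 of the listed transcripts. Midbrain was taken from B6NCrl mouse embryos at 15.5 days, males and females together, and its total RNA was sequenced. Both libraries belong to the only group of the study, healthy midbrain with no treatment or genetic change named in the labels, and each is a pool, of 78 embryos in replicate 1 and of 62 in replicate 2. Nothing in the design contrasts conditions, so genes are compared with each other inside each library, and each gene is compared across the 2 pools.

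Intermediate filaments are ropes of coiled proteins that give a cell its mechanical strength. Each subunit has a central rod flanked by a head and a tail, and the family is divided into types by sequence and gene structure. Neural progenitors and radial glia, whose bodies line the ventricle, carry filaments of vimentin and nestin. Young neurons build alpha-internexin and then add the light, medium and heavy neurofilament subunits, whose tails space the filaments of the growing axon. Astrocytes, which appear late in development, add glial fibrillary acidic protein to vimentin.

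The libraries held 38966386 and 40419493 expected counts, of which spike-ins took 2.30% and 2.42%. Levels are given in TPM, the length-scaled share of a gene in all transcripts, and a gene at 1 TPM or more in both libraries is called expressed. In all, 15347 Ensembl genes were expressed, 13401 of them protein coding with a median of 20.3 TPM. The labelled tissue was checked against transcription factors of the midbrain, of which 5 of 6 were expressed. Otx2, which sets forebrain and midbrain identity, stood at 66.4 and 66.1 TPM in replicates 1 and 2, and En1, a factor of the midbrain and hindbrain boundary, at 10.3 and 7.60 TPM. The remaining factor, En2, was at 1.21 and 0.76 TPM. RNA from pooled tissue cannot tell apart fewer cells of a type from less RNA per cell, and that holds for every level below.

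The genes are related in sequence, though the stretches they share exactly are short. To show this, the 10 codons close to the end of the rod that Vim shares best with the other genes are printed for each gene, with bases that differ from Vim in capitals. All are read from GENCODE M21 transcripts on build mm10, in the direction of transcription.
Vim: caagatctgctcaatgttaagatggccctg
Gfap: caGgatctActcaaCgttaagCtAgccctg
Nefl: caGgaCctCctcaatgtCaagatggccTtg
Nefm: caGgatctCctTaaCgtCaagatggccctg
Nefh: caGgaCctgctcaaCgtCaagatggccctg
Ina: caGgaCTtgctcaatgtCaaAatggccctT
Nes: caGCaActgGCACaCCtCaagatgTccctT
They lie at chr2:13580159-13580188 (Vim, plus strand), chr11:102893085-102893114 (Gfap, minus), chr14:68086046-68086075 (Nefl, plus), chr14:68122844-68122873 (Nefm, minus), chr11:4943874-4943903 (Nefh, minus), chr19:47021905-47021934 (Ina, plus) and chr3:87973064-87973093 (Nes, plus). All are coding exon sequence, from exon 6 in Vim and Gfap, exon 3 in Nefh and exon 2 in the others. Of the 30 bases, 26 in Nefh, 25 in Gfap, Nefl and Nefm, 24 in Ina and 18 in Nes were those of Vim. Counted by the amino acid encoded, all 10 codons matched Vim in the neurofilament genes and Ina, 9 did in Gfap and 5 in Nes. Over the whole of the longest coding transcripts, the longest stretch that any of the 21 pairs of genes shared exactly was 23 bases.

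Gene structure followed 2 patterns. Vim-201 and Gfap-201 each had 9 exons, and all 7 of their inner exons had the same lengths in both. In their longest coding transcripts the other 5 genes had 3 or 4 exons, and each of them held an exon of 125 nt. Nefl and Nefm are neighbours on chromosome 14, on opposite strands and with 30187 bases between Nefl and the 3′ end of Nefm-201. Nefh and Gfap lie on chromosome 11, Ina on chromosome 19, Nes on chromosome 3 and Vim on chromosome 2.

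**Figure D1:**
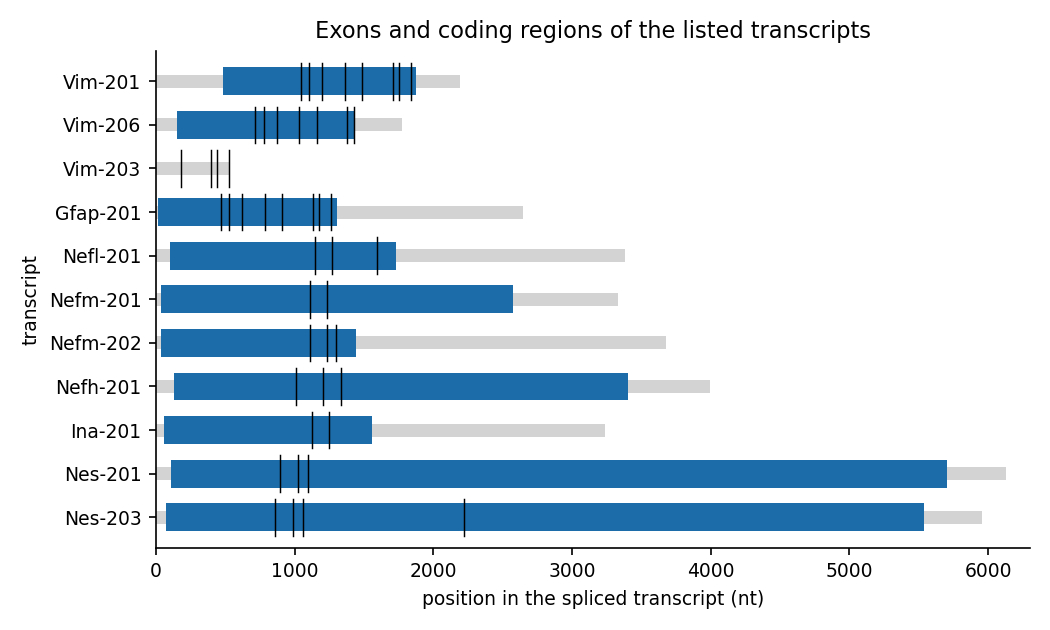
Exon structure of 11 of the 17 transcripts, to scale, against position in the spliced transcript in nt. Blue boxes are coding, grey bars are not, and black ticks are exon junctions. Vim-201 and Gfap-201 share the spacing of their inner exons, whereas the neurofilament genes, Ina and Nes have long coding stretches without a junction.

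Ina was the highest of the 7 genes and Gfap the lowest, and all but Gfap were expressed. The order was Ina, Vim, Nefl, Nefm, Nes, Nefh and Gfap in both libraries. In each of the 6 neighbouring pairs of that order, both libraries of the higher gene lay above both of the lower. The gap in mean TPM was also larger than the sum of the SDs of the pair in all 6. The median level of the 7 genes was that of Nefm, 72.8 ± 4.84 TPM (SD, n = 2), beside 20.3 TPM for all expressed coding genes. Together the 7 genes summed to 1142 TPM in replicate 1 and 1134 TPM in replicate 2. The place of Vim above Nefl rests on how Vim reads were spread over its transcripts, as described with Vim.

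**Figure D2:**
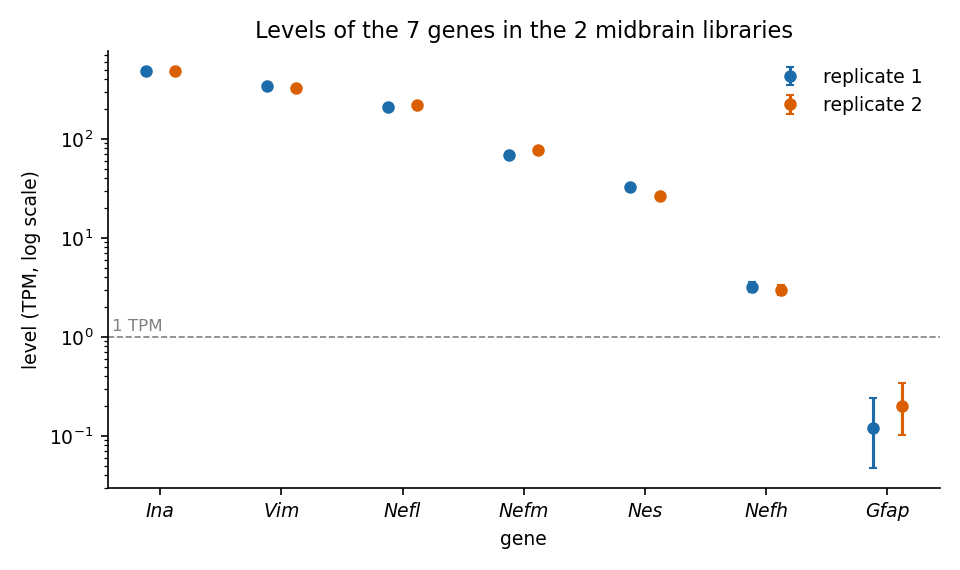
Level of each gene in TPM on a log axis, with replicate 1 in blue and replicate 2 in orange. Bars are 95% Poisson intervals of the count and are hidden by most points. The genes run from 483 and 481 TPM for Ina down to 0.12 and 0.20 TPM for Gfap, and the dashed line is 1 TPM.

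Among the subunits of neurons, alpha-internexin led and the heavy neurofilament subunit was scarce. Ina encodes a subunit that can form filaments on its own and is made early in neurons. It stood at 483 TPM in replicate 1 and 481 TPM in replicate 2, the rank of 229 among all Ensembl genes, and 98.5% of the expressed coding genes were below it. Its SD over the 2 libraries, 1.23 TPM, was 0.255% of its mean, the smallest such share among the 7 genes, which ranged up to 15.1% in Nes and 35.4% in Gfap.

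Nefl, the light chain that other neurofilament subunits need for assembly, was measured at 209.7 and 222 TPM (216 ± 8.44, n = 2). Nefm, the medium chain, was at 69.4 and 76.2 TPM (72.8 ± 4.84). Both were slightly higher in replicate 2. Nefh, the heavy chain, whose rise marks mature large axons, was at 3.20 and 2.96 TPM (3.08 ± 0.170), from 291 and 278 counts. Only 11.1% of the expressed coding genes lay below Nefh.

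Set against each other within a library, Ina was 2.24 ± 0.0933 times Nefl in TPM, Nefl was 2.97 ± 0.0811 times Nefm, and Nefm was 23.7 ± 2.88 times Nefh (SD, n = 2). The first of these ratios was 2.30 and 2.17, the next 3.02 and 2.91, and the last 21.7 and 25.7 in replicates 1 and 2. The step from the medium to the heavy chain was thus the widest among the subunits of neurons in both libraries. Of the summed level of these 4 genes, Ina took 63.1% and 61.5%, Nefl 27.4% and 28.3%, Nefm 9.07% and 9.75%, and Nefh 0.418% and 0.379%. In a marker list of maturing neurons 6 of 6 genes were expressed, led by the microtubule genes Mapt at 829 and 889 TPM and Map2 at 347 and 375 TPM. In a list of young neurons 7 of 7 were expressed, led by Tubb3 at 1782 and 1731 TPM and Gap43, a growth cone gene, at 1209 and 1268 TPM.

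The tail of the heavy chain is known for repeats that carry lysine, serine and proline, where axonal kinases phosphorylate the serine. The coding region of Nefh held 51 runs of codons for those 3 amino acids in that order among its 1090 codons, against 4 in Nefm-201, 5 in Nes-201 and 0 in Nefl, Ina, Vim-201 and Gfap-201. The 120 bases of Nefh densest in such runs are printed to show the repeat, with the 7 runs in capitals, from exon 4 at chr11:4940938-4941057 on the minus strand.
Nefh: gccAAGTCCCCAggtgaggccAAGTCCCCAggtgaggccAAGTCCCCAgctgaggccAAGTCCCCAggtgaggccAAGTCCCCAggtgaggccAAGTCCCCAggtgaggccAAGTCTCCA
This repeat stretch belongs to the neuronal subunit with the lowest level.

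For Nefm, a second transcript was listed beside the main one. Nefm-201, which codes for the whole protein of 848 codons, took 94.92% and 94.96% of the level. Nefm-202, with 470 codons and no run of the lysine, serine and proline codons, took 5.08% and 5.04%, or 3.52 and 3.84 TPM. Its last exon lies far downstream and covers the start of Nefl on the opposite strand, with 1108 bases in common at chr14:68083863-68084970. The first exon of Nt5c2, a nucleotidase gene, likewise covers 456 bases of the start of Ina, at chr19:47014698-47015153. Whether strand was used in counting is not given in the sources used here, so reads in these bases cannot be assigned with certainty. The deposited posterior SD of the count was the same for Nefl and Nefm, 16.8 counts in replicate 1 and 16.9 in replicate 2, and the same for Ina and Nt5c2, 19.3 and 18.8. These SDs were at most 0.318% of the count in Nefl, Nefm and Ina.

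Vim, the filament gene of radial glia that is also made in vessels and meninges, stood at 344 TPM in replicate 1 and 326 TPM in replicate 2 (335 ± 13.0, n = 2). Nes, a marker of neural progenitors that assembles with vimentin, was at 32.6 and 26.4 TPM (29.5 ± 4.44). Vim was thus 10.55 and 12.4 times Nes in TPM, and 2.69 and 2.94 times Nes in counts, which are not scaled by length. The TPM ratio rests on how reads were spread over the transcripts of each gene. With coding transcripts alone, an alternative chosen after seeing the data, Vim was at 203.3 and 185 TPM and Nes at 26.9 and 22.9 TPM, a smaller ratio in both libraries. Both genes were somewhat higher in replicate 1. The markers of radial glia, 9 of 9 expressed, summed to 1335 and 1269 TPM, led by the lipid-binding gene Fabp7 at 989 and 963 TPM and by the Notch target Hes5 at 122 and 94.7 TPM.

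A large share of the Vim level sat on a transcript that is not annotated as coding. Vim-203, a retained-intron transcript of 535 nt, took 40.0% of the Vim level in replicate 1 and 41.6% in replicate 2, or 138 and 136 TPM. It held only 13.4% and 14.3% of the Vim counts. The coding transcripts Vim-201 and Vim-206 took 30.1% and 27.8%, and 28.9% and 28.9%, of the level, with 48.5% and 45.95%, and 37.2% and 38.3%, of the counts. Vim-203 leads by TPM and Vim-201 by counts, because TPM divides each count by an effective length, which is 436 nt for Vim-203. Of the 535 bases of Vim-203, 483 are also exon sequence of the coding transcripts and 52 are not. The start of Vim-203 is printed to show those 52 bases of intron 4 in lower case, followed by the first 20 bases of exon 5 in capitals, at chr2:13579369-13579440 on the plus strand.
Vim-203: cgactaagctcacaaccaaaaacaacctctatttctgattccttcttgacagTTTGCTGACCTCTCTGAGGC
Vim-201 and Vim-206 differ inside the gene by exon 8, 86 bases at chr2:13581613-13581698 on the plus strand, which Vim-206 lacks and Vim-203 holds. It is printed as the only inner stretch of bases that Vim-201 holds and Vim-206 lacks. A read across the junction by which Vim-206 skips it also tells these coding forms apart. A read inside exon 8 can come from Vim-203 as well as from Vim-201.
Vim exon 8: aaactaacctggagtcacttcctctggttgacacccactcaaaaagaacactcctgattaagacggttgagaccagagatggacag
Without it the reading frame of Vim-206 ends early, and its coding region has 427 codons in place of 466.

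How Vim counts were spread over these transcripts set its place in the order. In an alternative chosen after seeing the data, all counts of a gene were put on its longest coding transcript. Vim then stood at 214 and 197 TPM beside Nefl at 209.7 and 222 TPM, so that Vim was above Nefl in replicate 1 and below it in replicate 2. With coding transcripts alone, another alternative chosen after seeing the data, Vim was at 203.3 and 185 TPM and below Nefl in both libraries. Ina stayed above and Nefm below both genes in these alternatives. Nefl, Nefm, Nefh and Ina together took 67.0% and 68.9% of the summed level of the 7 genes (68.0% ± 1.37), which became 77.0% ± 1.42 with all counts on the longest coding transcript and 77.9% ± 1.49 with coding transcripts alone.

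**Figure D3:**
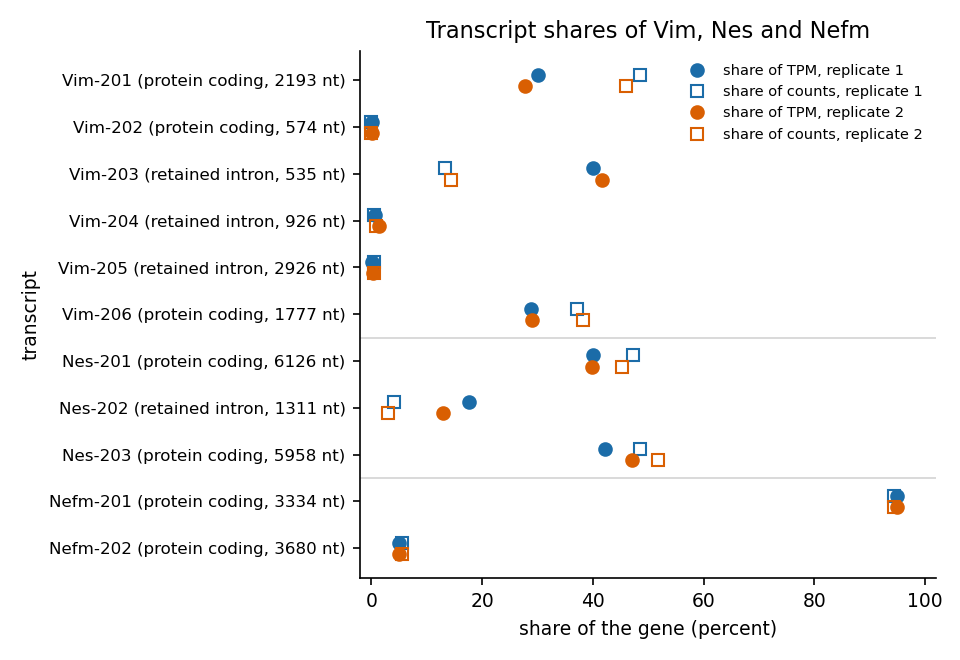
Share of each transcript in its gene, in percent, for Vim, Nes and Nefm. Filled circles are shares of TPM and open squares shares of counts, with replicate 1 in blue and replicate 2 in orange. Vim-203 holds 40.0% and 41.6% of the TPM but 13.4% and 14.3% of the counts, and Nefm-201 holds 94.4% of the counts or more.

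Nes was carried by a pair of nearly identical coding transcripts. Nes-203 took 42.3% of the level in replicate 1 and 47.1% in replicate 2, and Nes-201 took 40.1% and 39.95%. The retained-intron transcript Nes-202 took 17.6% and 12.9%, from 163 and 99.6 counts. Within the gene, Nes-203 lacks 132 bases of exon 4 of Nes-201, which are 44 codons in frame, and Nes-203 has no base that another Nes transcript does not also hold. The missing stretch at chr3:87976581-87976712 and the 132 bases after it at chr3:87976713-87976844, both on the plus strand, are printed because most of the difference between the coding transcripts lies there. Capitals mark the bases in which they differ.
Nes stretch: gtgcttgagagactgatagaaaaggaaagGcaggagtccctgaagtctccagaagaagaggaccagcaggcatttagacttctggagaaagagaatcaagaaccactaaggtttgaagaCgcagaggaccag
Nes next stretch: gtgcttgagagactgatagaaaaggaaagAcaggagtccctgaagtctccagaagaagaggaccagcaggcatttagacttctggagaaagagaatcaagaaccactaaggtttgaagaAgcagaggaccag
They were identical in 130 of 132 bases, so the missing stretch is a unit of a tandem repeat of the nestin tail, and it begins with GT and ends with AG, the letters found at the ends of most introns. The deposited posterior SD was 268 counts for Nes-201 and 269.9 for Nes-203 in replicate 1, or 14.7% and 14.1% of the posterior mean. In replicate 2 it was 12.2% and 11.1%. Nes-203 had 1888 counts and Nes-201 1842 in replicate 1, and 1753 and 1530 in replicate 2, where the SDs were 191 and 190.0. In both libraries this difference was smaller than the sum of the SDs of the pair, so which of them was higher is not settled. The count of the whole gene had a posterior SD of 0.

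Gfap, the filament gene of astrocytes, was close to the limit of detection. Its counts were 7 in replicate 1 and 12 in replicate 2, or 0.12 TPM (95% Poisson interval 0.0473 to 0.242) and 0.20 TPM (0.101 to 0.341). The deposited posterior mean TPM, 0.31 and 0.38, lay above these intervals and below 1 TPM. The intervals overlap and cover counting error only. A floor was set at 3 counts, which equal 0.0504 and 0.0488 TPM for this gene in replicates 1 and 2. All counts were placed on Gfap-201, and Gfap-202 and Gfap-203 were listed at 0. Other astrocyte genes were well above this level. Of 8 listed, 8 were expressed, led by the gap junction gene Gja1 at 105 and 89.1 TPM and by Aldoc, an enzyme of sugar breakdown, at 107 and 69.9 TPM, and the lowest was the calcium-binding gene S100b at 1.21 and 1.05 TPM. Radial glia also express several of these genes.

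The 2 pools were compared gene by gene with a two-sided exact binomial test on rounded counts, with Benjamini-Hochberg adjustment over the 18269 genes with a mean of 10 counts or more. Such a p compares these 2 libraries and not conditions. A call needed a ratio of 2-fold or more together with an adjusted p under 0.05. Of all genes tested 298, or 1.63%, were called, and of the 6 filament genes tested 0 were. Gfap had too few counts for the test, with a ratio of replicate 1 to replicate 2 whose 95% counting interval ran from 0.201 to 1.66.

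With no fold threshold, 3534 genes, or 19.3%, had an adjusted p under 0.05 by the exact binomial test, and 4 of the 6 tested members did. That share covers all genes with a mean of 10 counts or more and is not matched to the members by count. At higher counts the exact test picks up smaller ratios. Nes was 1.19 times higher in replicate 1 (95% counting interval 1.13 to 1.24), with 3893 against 3383 counts and an adjusted p of 1.7e-11 by the exact test. Vim was 1.085 times higher in replicate 1 (1.055 to 1.115), with 10467 against 9958 counts and an adjusted p of 2.5e-07 by the exact test. Nefl went the other way, 1.06 times higher in replicate 2 with 17532 against 16067 counts and an adjusted p of 8.6e-06 by the exact test, though scaled by the spike-ins its ratio turned to 0.0056 on the log2 scale in favour of replicate 1 with an adjusted p of 0.835. Nefm was 1.10 times higher in replicate 2, with 5976 against 5269 counts and an adjusted p of 1.4e-05 by the exact test, and 0.16 with spike-in scaling. Ina (adjusted p = 0.837) and Nefh (adjusted p = 0.607) did not pass the exact test, with ratios of replicate 1 to replicate 2 of 1.00 (0.989 to 1.02) and 1.08 (0.913 to 1.28). Scaled by the spike-ins Ina did pass without a fold threshold, 0.09 higher in replicate 1 on the log2 scale. Its adjusted p was 2.0e-15 by the exact test, and Nefh did not pass (adjusted p = 0.232). Spike-in scaling moved all 6 tested members towards replicate 1. The log2 ratio of Nes went from 0.248 to 0.334 and that of Vim from 0.117 to 0.203.

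A binomial test allows for counting error alone, and no further library was at hand to measure the spread between pools independently. The common biological coefficient of variation was 0.065, and edgeR's exact test with that dispersion, which was estimated from the same 2 libraries, gave an adjusted p under 0.05 for 0 of the 6 members, and an unadjusted p under 0.05 for 0 of them, beside 236 of all genes with an adjusted p under 0.05. Its unadjusted p for Nes, the lowest of the 6, was 0.071 in this exact test. Summed levels of the marker lists in replicates 1 and 2 are set beside these ratios. Those of cycling cells were 202.9 and 181 TPM, of astrocytes 318 and 255, of endothelium 182 and 157, of mural cells 212 and 168, of meninges and fibroblasts 394 and 346 and of microglia 127 and 101. Without a fold threshold 19.3% of all genes tested passed the exact binomial test, and 1 of 6 did in endothelium and in mural cells. The median log2 ratios of these lists were 0.08 and 0.10. Most of the gap in their sums lay in Cldn5, a tight junction gene at 108 and 87.2 TPM, and in Vtn, the vitronectin gene at 152 and 112 TPM. In either direction 4 of 5 genes passed in cycling cells, 5 of 8 in astrocytes, 4 of 5 in meninges and fibroblasts and 4 of 6 in microglia. The radial glia list summed to 1335 and 1269 TPM, with a median log2 ratio of 0.17. Of its 9 genes 5 passed, 4 higher in replicate 1 and 1 in replicate 2. The sums of young neurons were 5532 and 5582 TPM, and 7 of 7 genes passed, 3 higher in replicate 1 and 4 in replicate 2. Those of maturing neurons were 1577 and 1683 TPM, and 4 of 6 genes passed, all higher in replicate 2. The lists of vessels, meninges and microglia had all 23 members expressed, and their part in the levels and ratios of Vim and Nes was not tested. Nor was the part of radial glia tested.

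**Figure D4:**
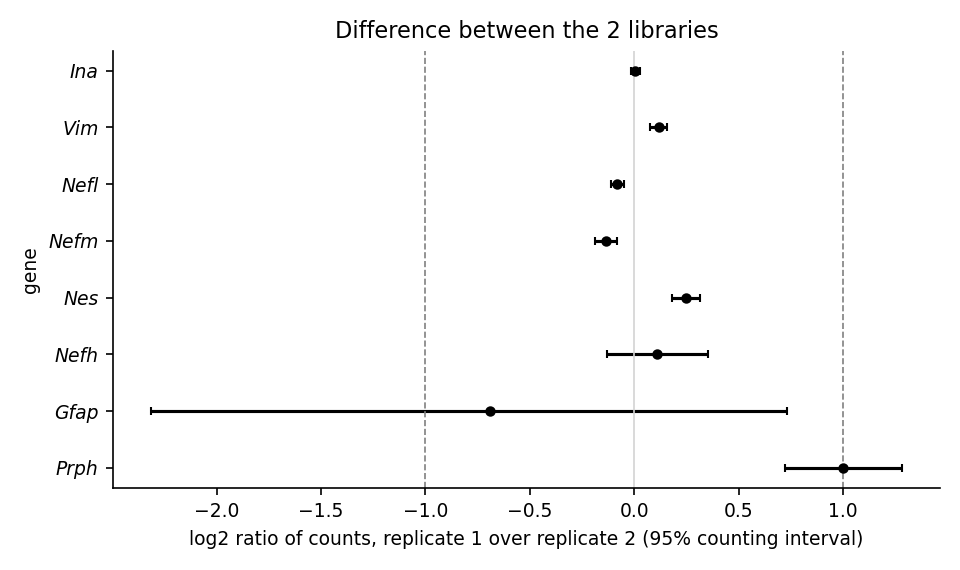
Log2 ratio of counts, replicate 1 over replicate 2, for the 7 genes and Prph, with 95% counting intervals as bars and dashed lines at a 2-fold ratio. Nes and Vim lie to the right of 0, Nefl and Nefm to the left, Ina and Nefh span 0, and Gfap has the widest interval.

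Beyond the 7 genes, 84 genes of other filaments, of linkers and transport, of filament enzymes, of turnover and of transcriptional control were listed, 83 were matched and 75 were expressed. Among 19 other intermediate filament genes 14 were expressed, with a median over all 19 of 2.60 TPM beside 20.3 TPM for all expressed coding genes. The nuclear lamin genes led, with Lmnb1 at 65.0 ± 3.92, Lmna at 43.4 ± 0.361 and Lmnb2 at 39.2 ± 0.884 TPM, followed by Iffo1 at 18.6 ± 0.849 TPM (SD, n = 2). By the exact test 4 of these 19 were called, all higher in replicate 2, beside 0.733% of all genes tested called in that direction and 1.63% in either, and all were keratin genes of surface epithelium. Krt5 had 4 counts in replicate 1 and 238 in replicate 2, Krt14 had 5 and 176, Krt15 had 13 and 132, and Krt17 had 2 and 31. In a marker list of skin and muscle 2 of 6 genes were expressed, with a summed level of 52.8 TPM in replicate 1 and 20.9 TPM in replicate 2, led by the muscle actin gene Actc1 at 44.8 and 2.44 TPM and the keratin gene Krt1 at 7.48 and 8.52 TPM. This list also holds Krt5, at 0.08 and 4.72 TPM, and Krt14, at 0.21 and 5.02 TPM, so it is not independent of the keratin calls. The gap in its sum lay in Actc1, called higher in replicate 1 with 1438 against 81 counts. Of its 5 genes tested, 1 was called higher in replicate 1 and 2 in replicate 2. The part of skin or muscle tissue in the keratin ratios was not tested.

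Prph, which encodes the peripherin of peripheral neurons and of the mesencephalic trigeminal and motor nuclei, was higher in replicate 1. It stood at 7.98 TPM in replicate 1 and 3.97 TPM in replicate 2, from 312 and 161 counts. The ratio, 2.00 with a 95% counting interval of 1.65 to 2.43 and an adjusted p of 1.6e-11 by the exact test, fell just short of the 2-fold threshold, at 0.998 on the log2 scale. In both libraries Prph exceeded Nefh in TPM. In a list of motor and mesencephalic trigeminal neurons 5 of 9 genes were expressed, led by the transcription factor genes Pou4f1 at 57.8 and 53.6 TPM and Isl1 at 27.9 and 25.0 TPM. The median log2 ratio of the list, replicate 1 over replicate 2, was -0.18. Of its 7 genes tested 1 was called, beside 1.63% of all genes tested. This was the acetylcholine synthesis gene Chat, higher in replicate 2 with 29 against 10 counts and an adjusted p of 0.0231 by the exact test. Chat stood at 0.16 and 0.44 TPM in replicates 1 and 2, below the threshold for expression. The part of these neurons in the Prph ratio was not tested.

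Of 14 listed genes that move filaments or tie them to other structures, 13 were matched and 10 expressed, with a median of 63.1 TPM, and the 4 highest all belonged to transport. The kinesin light chain gene Klc1 stood at 543 ± 0.240 TPM, the heavy chain genes Kif5c and Kif5b at 172 ± 4.89 and 109 ± 2.36 TPM, and the dynein regulator gene Ndel1 at 87.1 ± 1.70 TPM. The periplakin gene Ppl, a linker of epithelial filaments, was called higher in replicate 2 by the exact test, with 38 against 6 counts, as the only call among the 13 matched genes, beside 1.63% of all genes tested. Ppl stood at 0.04 and 0.26 TPM, below the threshold for expression. All 18 kinase and phosphatase genes were expressed, and their median was 53.6 TPM, with Prkaca at 189.5 ± 6.70, Gsk3b at 135 ± 2.23 and Pak1 at 113 ± 2.84 TPM among the highest. All 7 genes of turnover and chaperones were expressed, with a median of 6.53 TPM. Trim2, a ubiquitin ligase that binds the light chain, led them at 124.6 ± 0.530 TPM, before the calpain gene Capn2 at 70.3 ± 0.134, the small heat shock gene Hspb1 at 11.2 ± 0.205 and Cryab at 6.53 ± 0.587 TPM.

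Regulators known to act on Gfap or Nes were present while Gfap itself was near 0. All 26 listed genes of the cytokine, bone morphogenetic protein and Notch pathways, of DNA methylation and of neural transcription factors were expressed, with a median of 18.1 TPM. Sox11, a factor of newborn neurons, led at 383 ± 1.05 TPM, followed by Hes5 at 108.5 ± 19.6, the kinase gene Jak1 at 59.1 ± 0.445 and the methyltransferase gene Dnmt1 at 54.5 ± 1.73 TPM. By the exact test 0 of the 18, 7 and 26 genes of these last lists were called at a 2-fold ratio, and without a fold threshold 7, 0 and 9 passed, beside 19.3% of all genes tested.

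**Figure D5:**
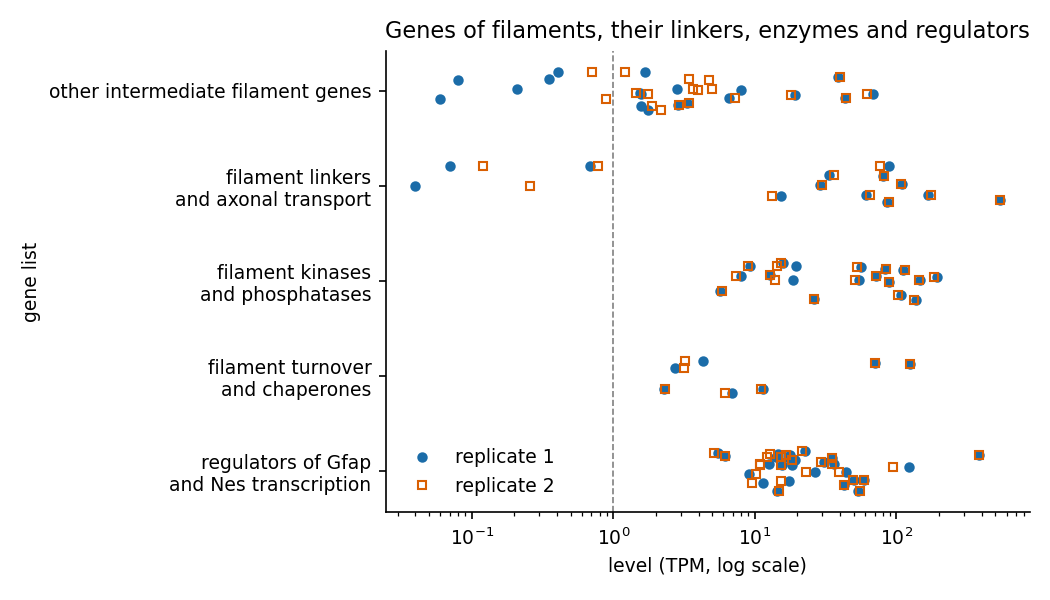
Level in TPM on a log axis of each matched gene of the 5 lists, with replicate 1 as filled blue circles and replicate 2 as open orange squares. Vertical scatter within a list only separates the points, and the dashed line is 1 TPM. The genes below the line belong to the other filament genes and the linkers, and all genes of the remaining lists lie above it.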

How the data were processed

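The 2 libraries of long RNA with ERCC spike-ins were used as deposited. For each the authors deposited a gene and a transcript table that hold, per the file headers, expected counts, TPM, FPKM, posterior means and SDs, credibility interval bounds (a signal not used in any result) and, for transcripts, the percent of the gene's abundance. The deposited TPM was scaled over all rows, spike-ins included. Build mm10 and annotation GENCODE M4 are named in the authors' deposited notes, while aligner, counting tool and strandedness were not given in the sources used here. Effective lengths were 99 nt below the lengths.

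Symbols came from gene IDs without version (42462 of 43346 matched). Transcript names, exons and sequences came from GENCODE M21 on mm10; all 17 lengths equalled the deposited ones. Expected counts were rounded for the test. TMM library sizes came from edgeR 4.0.16 in R 4.3.3, and alternative size factors from DESeq2 1.42.0. Log2 ratios had 0.5 added to each count. Intervals are 95% and cover counting error only, since PCR copies could not be told apart. Counts of replicate 1 over replicate 2 were also simulated with counting noise only. In these the test found 88 of 100 genes made 3-fold different and 97 of 100 made 4-fold different, over 18278 genes. The simulation held no spread between pools, so it cannot show how the test behaves where pools differ beyond counting noise. Python 3.11.15 with scipy 1.17.1 and Biopython 1.88 did the rest.

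The members and lists were chosen with earlier results of these data known. Named were all 7 members, the 4 highest genes of each pathway list, Prph, every listed gene called, and up to 2 of each marker list; En2, S100b, Nt5c2 and Chat were added after their values were seen. A gene that this rule names is not reported here. P-values compare only these 2 pools. Those of the exact binomial test allow for counting error alone and do not measure the spread between pools.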

Additional observations from a re-analysis of the deposited data

How the results depend on the processing

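No paired analysis was possible because the study has 1 group of 2 libraries. The count of 298 genes called between the libraries became 3534 without a fold threshold, 67 when a mean count of at least 50 was required and 158 by edgeR's exact test with the common dispersion; the count of members called was 0 and became 4 only without the fold threshold. The share of Nefl, Nefm, Nefh and Ina, 68.0% of the members' TPM, was 77.0% with all counts on the longest coding transcript, 77.9% with coding transcripts only (both chosen after seeing the data) and 80.9% from counts not scaled by length, and 67.0% to 68.9% when leaving out either replicate. The log2 ratio of Vim over Nefl, 0.64, reversed to -0.069 and -0.15 under the first 2 of these, and the Nefl ratio between libraries, -0.08, reversed to 0.0056 with spike-in sizes, which took Ina from an adjusted p of 0.837 to 2.0e-15. Posterior mean TPM put Gfap at 0.345 in place of 0.160. Of the 4 members with several transcripts, 3 kept their leading transcript by share of counts, Vim being the exception. The smallest values rest on depth: Gfap had 7 and 12 counts, and 3 counts equal 0.0504 TPM for it in replicate 1.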
